A study of Homo sapiens with 8 samples.

Results

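The stretch of chromosome 8 described here runs from 43 Mb to below 145.3 Mb (human build hg19) and takes in the whole long arm short of its end, with the last part of the short arm beside the centromere. Its members were chosen by position: every called γH2AX region whose midpoint lies in the stretch, in any of 3 deposited peak lists. Of 9709 regions on chromosomes 1 to 22 and X in untreated cells, 233 were members. The cisplatin list gave 296 members out of 25671 regions, and the Pt-ttpy list 201 out of 17789. The stretch was singled out because earlier counts from these lists had shown fewer Pt-ttpy than untreated regions on the long arm, so those counts are a description and support nothing.

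The cells were A2780, a human ovarian carcinoma line, and chromatin was immunoprecipitated with an antibody against γH2AX before sequencing. There were 8 samples, 2 in each of 4 groups. One group was left untreated, another received cisplatin and another Pt-ttpy, each for 96 hours at the IC80 dose, and the last was input from untreated cells, made with no antibody. The labels tie both immunoprecipitated samples of a group to 1 list, so each condition is 1 list without replicates, no test between conditions was possible, and the input samples were not analysed here. The lists give no read totals, so the depth behind a region is unknown.

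γH2AX is histone H2AX phosphorylated by the kinases of the DNA damage response, and it spreads over the chromatin around double-strand breaks and stalled replication forks. Cisplatin forms crosslinks between neighbouring guanines, whereas Pt-ttpy is a platinum complex that binds G-quadruplexes, the folded structures of guanine-rich DNA. Sequence beside centromeres is rich in satellite repeats, and chromosome arms also carry tandem arrays of gene copies. Short reads from such repeats are hard to place, and copies missing from a reference sequence send their reads to the copies that are present.

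Regions in the stretch were gathered into few places. A window of 100 kb was taken as dense when it held 5 or more regions of a list. Of the 1023 windows in the stretch, 8 were dense in untreated cells, 9 with cisplatin and 8 with Pt-ttpy. These are 0.782%, 0.880% and 0.782% of the windows, where the share over the genome was 0.984% for untreated cells, 3.54% for cisplatin and 2.17% for Pt-ttpy. The share of dense windows therefore lay below the background for both drugs, and closer to it in untreated cells. Of the untreated regions of the stretch 90.6% lay in dense windows, as did 61.5% of those called after cisplatin and 80.6% of those called after Pt-ttpy. The untreated list numbers its peaks by position, and 114 numbers within the stretch are missing. Of these, 93 fall outside the clusters described below, so the untreated share holds for listed regions only. The last window to count as dense, at 46.9 Mb, held 5 cisplatin regions but 4 untreated and 4 Pt-ttpy regions, and the window at 43 Mb held 5 in each list.

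Joined where they adjoin or lie 1 window apart, the dense windows formed 5 clusters. A small one of 5 regions in each list began at 43092757 in the untreated list and ended at 43097118. Another, on the short-arm edge of the centromere gap, ended at 43838862 in untreated cells, at 43838863 after cisplatin and at 43838845 after Pt-ttpy. The next began beyond the gap, at 46838925, 46838915 and 46838919 in the same order, and no list had a region in between, which is where hg19 holds its large centromere gap. The fourth, a compact cluster at 58.1 Mb, and the fifth, from 86.5 to 86.9 Mb, lay within the long arm. Regions in none of the 5 clusters are called scattered here.

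**Figure D1:**
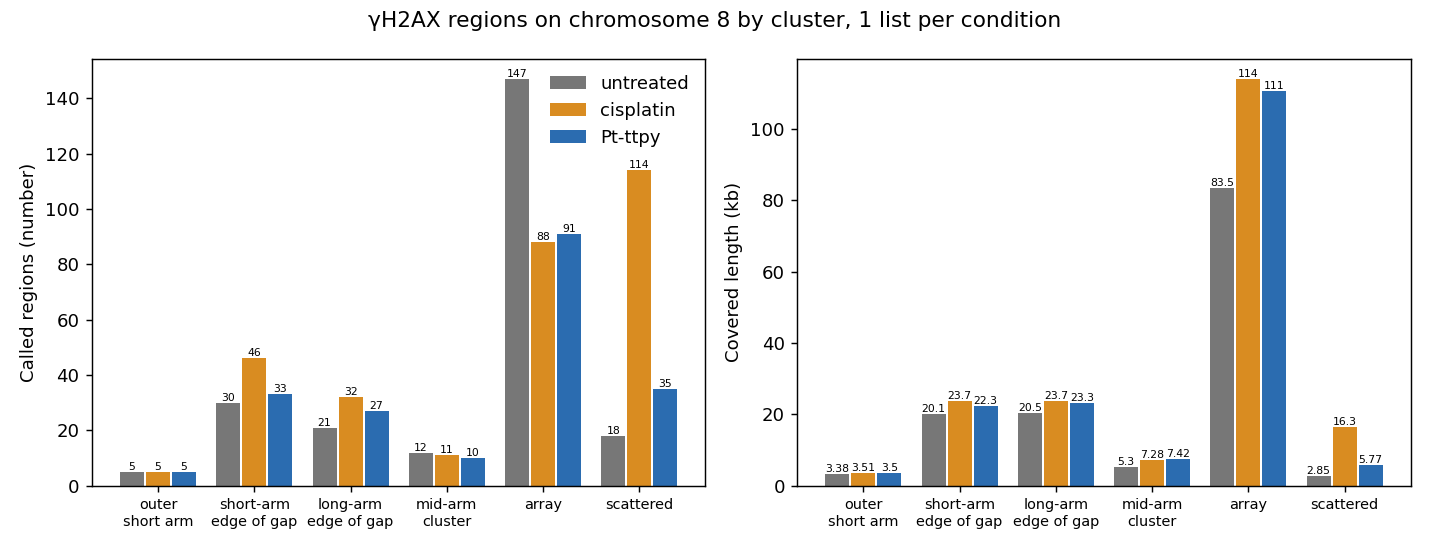
Number of called γH2AX regions (left) and length they cover in kb (right) in the 5 clusters of the stretch and among scattered regions; each bar is 1 deposited list, without replicates. In the array the untreated list had the most regions (147 against 88 and 91) and the shortest covered length (83.5 kb against 114 and 111 kb).

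The cluster from 86.5 to 86.9 Mb held most of the untreated regions. These were 147 of 233 (63.1%), beside 88 of the 296 cisplatin regions (29.7%) and 91 of the 201 Pt-ttpy regions (45.3%). Of the 114 untreated peak numbers missing from the stretch, 12 fell within this cluster, so 63.1% holds for listed regions only. From general knowledge of hg19, this part of band 8q21.2 carries a tandem array of REXO1L copies, a primate gene family related to the RNA exonuclease gene REXO1, and the array is interrupted by an assembly gap. No hg19 annotation was used here, so regions were not assigned to copies. In the RefSeq gene table of GRCh38.p14, 11 entries on chromosome 8 carry REXO1L symbols, all 11 with a biotype that names a pseudogene, and the nearest named protein-coding genes on either side are CA2, a carbonic anhydrase, and PSKH2, a protein kinase. The cluster is called the array from here on.

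The array was called as 2 blocks in every list. In untreated cells the first block ran from 86557551 to 86576362 and the second from 86726691 to 86840621. After cisplatin the blocks ran from 86555169 to 86576387 and from 86726515 to 86840832. After Pt-ttpy they ran from 86555514 to 86576382 and from 86726518 to 86840765. The outer limits of the second block differed little between lists, and the empty space between the blocks was 150 kb in each list, at the place of the assembly gap.

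Fewer regions in the array did not mean less sequence covered. The 147 untreated regions covered 83.5 kb, the 88 cisplatin regions 114 kb and the 91 Pt-ttpy regions 111 kb. The Pt-ttpy list thus had 0.619 times as many regions as the untreated list and 1.32 times the covered length, and the cisplatin list had 0.599 times the regions and 1.37 times the length. In the second block, regions covered 63.3% of the span in untreated cells, 85.5% after cisplatin and 82.8% after Pt-ttpy. The 2 drugs were close to each other in the array, with 0.967 cisplatin regions per Pt-ttpy region (exact 95% interval 0.713 to 1.31, counting error only) and 1.03 times the covered length.

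Regions in the array had larger median widths after either drug. The median width was 299 bp in untreated cells (order-statistic 95% interval 268 to 399), 760.5 bp after cisplatin (502 to 984) and 669 bp after Pt-ttpy (514 to 984). The intervals treat regions as independent, although neighbours in an array share repeated sequence. The widest region measured 4821 bp without drug, 7138 bp with cisplatin and 7907 bp with Pt-ttpy. Regions over 1 kb numbered 24 of 147, 33 of 88 and 34 of 91. Pooled over everything outside the array, the medians had the opposite order, 192.5 bp in untreated cells, 137 bp after cisplatin and 161.5 bp after Pt-ttpy. Taken part by part, both drug medians were above the untreated one except at the short-arm edge, where they were 216, 147.5 and 158 bp. The pool differs in make-up, since narrow scattered regions were 18 of 86 in untreated cells but 114 of 208 after cisplatin. Their medians were 116.5, 119.5 and 135 bp.

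**Figure D2:**
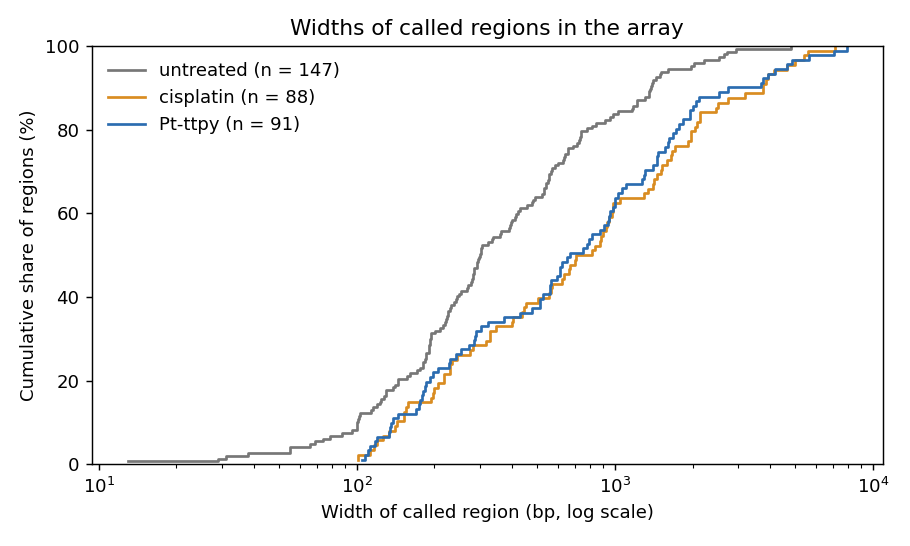
Cumulative share of regions (%) by width (bp, log scale) in the array, with 1 line per list. At the middle of the distribution the untreated line lies to the left of both drug lines, with a median of 299 bp against 760.5 bp for cisplatin and 669 bp for Pt-ttpy.

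Single regions of the treated lists lay over several untreated ones. Of the 91 Pt-ttpy regions in the array, 70 lay on an untreated region, 38 on 2 or more and 6 on 5 or more, and together those 70 lay on 146 of the 147 untreated regions. For cisplatin, 63 of 88 lay on an untreated region, 38 on 2 or more and 7 on 5 or more, again with 146 untreated regions beneath them. The Pt-ttpy region from 86818096 to 86822744 (4649 bp) and the cisplatin region from 86818063 to 86822726 (4664 bp) each lay over the same stretch of 9 untreated regions, which began at 86818116, ended at 86822506 and summed to 3.00 kb. From 86768402 the Pt-ttpy list had 1 region of 3741 bp and the cisplatin list 1 of 3742 bp, each over 6 untreated regions summing to 3.03 kb. At the start of the array, the Pt-ttpy region from 86559527 to 86566591 lay over 5 untreated regions that together measured 6.45 kb. Pieces that share a peak number were counted as separate regions in all these overlaps. By number, the 9, 6 and 5 untreated regions were 8, 4 and 4.

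**Figure D3:**
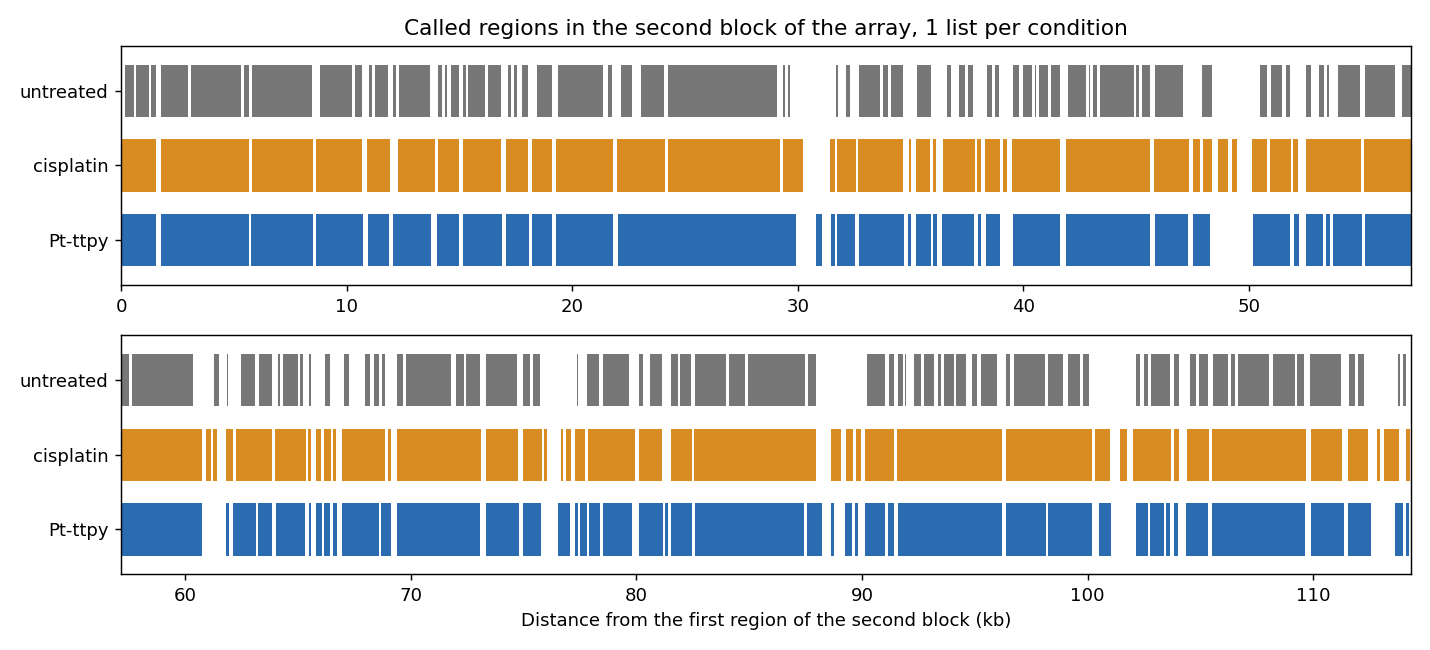
Called regions (filled boxes) of each list along the second block of the array, in kb from the first region of the block; the lower panel continues the upper one. Untreated regions are short and closely spaced, and the same places are covered by longer boxes in both drug lists, 63.3% of the span against 85.5% and 82.8%.

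At the level of bases, the untreated ground in the array lay almost wholly within that of either drug, and the 2 drug lists nearly coincided. Of the bases covered in untreated cells there, 99.2% were covered after cisplatin and 98.9% after Pt-ttpy. In the stretch without the array these shares were 98.9% and 98.5%, so they are not particular to the array. In the other direction 72.6% of the cisplatin bases and 74.7% of the Pt-ttpy bases lay on untreated regions. Without the array these were 69.2% and 82.4%. Between the drugs, 96.1% of Pt-ttpy bases were covered after cisplatin and 93.2% of cisplatin bases after Pt-ttpy, against 92.6% and 77.4% without the array. The gaps between neighbouring regions were short in all 3 lists, with a median of 190 bp in untreated cells, 179 bp after cisplatin and 176 bp after Pt-ttpy, which lie below the 200 bp that is the lower end of the sonicated fragments.

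The form of the untreated list enters this count. Peak numbers in its names follow position, and 21 numbers in the array appeared on more than 1 piece, so that 147 regions carried 125 numbers. In both treated lists every region had a number of its own. Counted by number the array had 125 untreated regions, 88 for cisplatin and 91 for Pt-ttpy, so the order was kept. Another 12 numbers were missing from the untreated array, and 15 of its regions were narrower than 101 bp, the least width in either treated list. When regions within 200 bp were merged, the array had 69 untreated regions, 40 for cisplatin and 36 for Pt-ttpy, and when regions within 1 kb were merged it held 10, 5 and 7.

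The strongest regions of the array were high in each list but not at its top. The fold here is the authors' enrichment. It falls on even steps that differ between lists, as it would over 1 constant background per list, so folds give no order between lists. The window of most regions is that at 86.7 Mb, where the region with the highest -log10 q of the untreated list lay at 86784153 to 86786861 with a fold of 22.3. After cisplatin it lay at 86750752 to 86755731 with a fold of 21.5, and after Pt-ttpy at 86748545 to 86756451 (fold 19.7). Of all regions in their list, 4.50%, 1.09% and 1.28% were as strong or stronger. In the window at 86.5 Mb the leading region began at 86560534 in the untreated list (fold 18.9), at 86559538 in the cisplatin list (fold 17.0) and at 86559527 in the Pt-ttpy list (fold 14.6). In the window at 86.8 Mb it began at 86823242 (fold 17.1), 86822882 (fold 16.3) and 86822891 (fold 17.0). In those windows the leading regions of all 3 lists fell at the same place, whereas at 86.7 Mb the untreated one lay elsewhere than those of the drugs. The median fold over the array was 6.31, 6.06 and 5.85, where the medians of the whole lists were 5.71, 3.64 and 3.91.

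Windows with fewer Pt-ttpy than untreated regions were counted next. Among windows of the stretch with a region of either list, 7 of 43 (16.3%) had fewer Pt-ttpy regions, where 5.7% of such windows did over the genome. The largest differences were at 86.7 Mb with 81 untreated and 43 Pt-ttpy regions, 86.8 Mb with 46 and 31, 43.8 Mb with 14 and 10, 86.5 Mb with 20 and 17, and 58.1 Mb with 12 and 10. The other 2 windows, at 130.9 and 142.5 Mb, differed by 1 region each. All 5 larger differences lay in windows dense in untreated cells, of which the stretch has 8, so that 62.5% of those windows had fewer Pt-ttpy regions. Over the genome 19.4% of windows dense in untreated cells had fewer Pt-ttpy than untreated regions. Because the stretch was singled out by such counts, its higher shares are description only. The windows at 86.5, 86.7 and 86.8 Mb all belong to the array.

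In each of those 5 windows the Pt-ttpy regions covered more bases than the untreated ones. At 86.7 Mb the covered length was 47.2 kb without drug, 63.0 kb with cisplatin and 61.7 kb with Pt-ttpy. At 86.8 Mb it was 25.0, 34.8 and 32.9 kb, and at 86.5 Mb it was 11.4, 16.3 and 16.0 kb. At 43.8 Mb it was 17.0, 17.8 and 17.6 kb, and at 58.1 Mb it was 5.30, 7.28 and 7.42 kb. The same held in 57 of the 58 windows of the genome that were dense in untreated cells and had fewer Pt-ttpy regions (98.3%), so the combination of fewer regions and more covered bases is not particular to chromosome 8. The window at 86.7 Mb had the fourth largest such difference in the genome, 38 regions, and the largest was at 22.3 Mb on chromosome 15 with 128 untreated and 67 Pt-ttpy regions covering 28.4 and 68.4 kb.

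**Figure D4:**
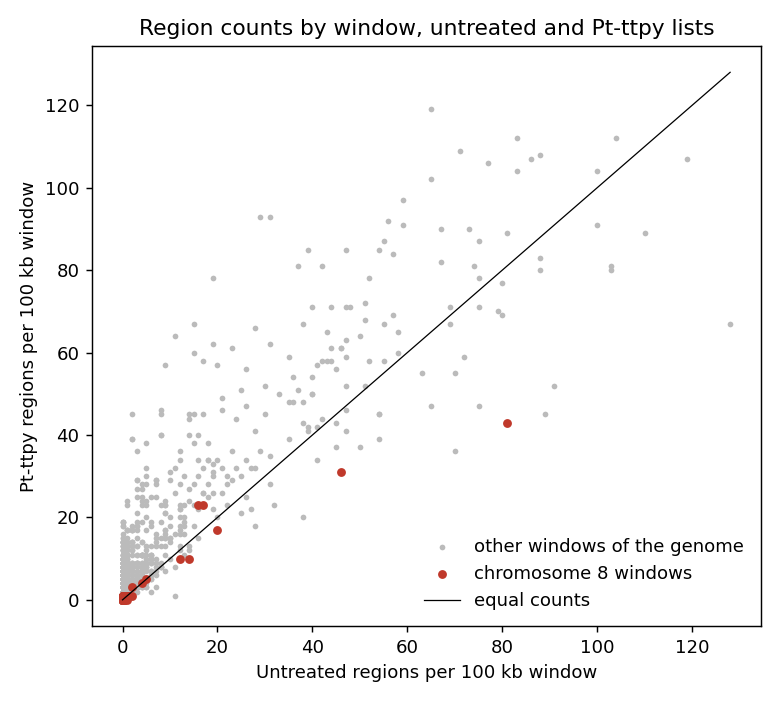
Untreated (x axis) and Pt-ttpy (y axis) regions per 100 kb window, each point 1 window of chromosomes 1 to 22 and X that holds a region of any list; the line marks equal counts. Of the chromosome 8 windows (red), the one with 81 untreated and 43 Pt-ttpy regions lies farthest below the line.

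Cisplatin regions were also fewer than untreated ones in 4 of the 8 windows dense in untreated cells, where 16.1% of such windows showed this over the genome. They were the 3 windows of the array and the window at 58.1 Mb, with 12 untreated and 11 cisplatin regions. By peak number the window at 58.1 Mb had 11 in both of these lists, so its order was not kept. At 86.7 Mb there were 81 untreated and 48 cisplatin regions, at 86.8 Mb 46 and 27, and at 86.5 Mb 20 and 13. At 43.8 Mb the drugs parted, with 17 cisplatin and 10 Pt-ttpy regions against 14 in untreated cells. The lower count in the array was thus found in both treated lists. In the Pt-ttpy list a lower count also appeared in the 43.8 Mb window. The short-arm edge as a whole nevertheless held more Pt-ttpy than listed untreated regions.

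Without the array the order of the whole stretch turned. With it, there were 0.863 Pt-ttpy regions per untreated region (exact 95% interval 0.711 to 1.05, counting error only). Without it, there were 110 Pt-ttpy and 86 untreated regions, a ratio of 1.28 (0.956 to 1.72). The first of these ratios is among the values the stretch was singled out by, so neither is read against 1. Merging regions within 1 kb also turned the order, to a ratio of 1.34 with 71 Pt-ttpy and 53 untreated regions. The Pt-ttpy to untreated ratio in the rest of the genome, outside the stretch, was 1.86. For cisplatin, 208 regions remained without the array, 2.42 times the untreated number, against 1.27 with it and 2.68 in the rest of the genome. The ratio of 1.27 turned to 0.980 among regions with a -log10 q of at least 5, to 0.755 with equal numbers of top regions and to 0.916 with the missing untreated numbers added. The ratios of 1.86 and 2.68 in the rest of the genome were not adjusted for missing numbers. Of 18049 numbers in the whole untreated list, 8848 are missing.

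Covered length did not turn when the array was left out, and it was not computed after merging or with missing numbers added. Summed over the whole stretch it was 136 kb without drug, 189 kb with cisplatin and 173 kb with Pt-ttpy, so that the Pt-ttpy list covered 1.27 and the cisplatin list 1.39 times the untreated length. Without the array the lengths were 52.1, 74.5 and 62.3 kb, with ratios of 1.20 for Pt-ttpy and 1.43 for cisplatin. In the rest of the genome the same ratios were 2.17 and 2.68, so the excess of covered length in both drug lists was smaller in the stretch than elsewhere, a difference that was not tested. Numbers are missing from the untreated list in both places, and the lengths were not adjusted for them. Over the stretch the median width was 278 bp in untreated cells, 168 bp after cisplatin and 274 bp after Pt-ttpy, against 163, 169 and 184 bp in the rest of the genome. The cisplatin median moved most with the calls admitted. With a -log10 q of at least 5 the medians were 299.5, 288 and 318 bp, and with equal numbers of top regions 278, 344 and 348 bp.

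The tandem repeats near the long-arm telomere of chromosome 4, where the D4Z4 macrosatellite lies, gave a contrast. From 190 Mb on, 268 regions were called without drug, 491 with cisplatin and 475 with Pt-ttpy, a Pt-ttpy to untreated ratio of 1.77 where the array had 0.619. Numbers missing from the untreated list were 134 at the chromosome 4 end and 12 in the array, and neither ratio was adjusted for them. Covered length there was 54.1, 171 and 153 kb, or 2.82 times the untreated value after Pt-ttpy. Of that span, 889 kb with an empty space of 270 kb inside it, 6.09% was covered in untreated cells. In the array 63.3% of the second block was covered, a span of 114 kb that leaves out the gap. Over the whole array, gap included, it was 29.5%, so the spans are unlike. The difference between the 2 places was not tested.

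The widest region of the stretch stood at the long-arm edge of the centromere gap in every list, with nearly the same limits. It ran from 46847670 to 46856837 in untreated cells, from 46847654 to 46856838 after cisplatin and from 46847661 to 46856837 after Pt-ttpy. Directly at the gap, the cisplatin list had a region from 46838915 to 46847479 and the Pt-ttpy list one from 46838919 to 46847474, where the untreated list had 2 regions, from 46838925 to 46842859 and from 46842965 to 46847447. On the short-arm edge a region of 5554 bp from 43820897 to 43826450 in untreated cells was matched by one of 5574 bp from 43820879 to 43826452 after cisplatin and by one of 5574 bp from 43820878 to 43826451 after Pt-ttpy. The highest -log10 q of the whole list was shared by 5 regions of the stretch with cisplatin and by 4 with Pt-ttpy, whereas no untreated region of the stretch reached the maximum of its list.

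The gap edges had more listed regions and more covered length in both treated lists than in the untreated one. The short-arm edge had 30 regions without drug, 46 with cisplatin and 33 with Pt-ttpy, covering 20.1, 23.7 and 22.3 kb. The long-arm edge held 21, 32 and 27 regions, covering 20.5, 23.7 and 23.3 kb. Untreated peak numbers are missing at both, 6 at the short-arm and 3 at the long-arm edge. At the short-arm edge the untreated numbers span 36, above the 33 Pt-ttpy regions, so that order holds for listed regions only. The Pt-ttpy to untreated count ratio there was 1.1 (0.650 to 1.87). At the long-arm edge 21 of 21 untreated regions lay on a region of each drug, and at the short-arm edge 30 of 30 lay on a cisplatin and 29 of 30 on a Pt-ttpy region. Of the whole untreated list, 96.1% lay on a cisplatin and 95.1% on a Pt-ttpy region. Treated regions with no partner in either other list had lower folds than shared ones. At the short-arm edge they numbered 14 of 46 for cisplatin and 4 of 33 for Pt-ttpy. Over the whole lists 51.4% of cisplatin and 29.3% of Pt-ttpy regions lay on neither other list, larger shares than at this edge. The median folds of those at the edge were 3.64 and 4.10, close to the medians of the whole lists (3.64 and 3.91). Regions there on both other lists had medians of 9.61 and 7.98.

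The small cluster in the window at 43 Mb was alike in all lists. Its 5 regions summed to 3.38 kb without drug, 3.51 kb with cisplatin and 3.50 kb with Pt-ttpy. Each of the 5 lay on a region of both other lists. The median fold was 48.4, 30.5 and 25.0, far above the medians of 5.71, 3.64 and 3.91 of the whole lists.

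In covered length and median width, the cluster at 58.1 Mb resembled the array on a small scale. It ran from 58118302 to 58127980 in untreated cells, from 58116586 to 58128006 after cisplatin and from 58116637 to 58127997 after Pt-ttpy. Its 12 untreated regions covered 5.30 kb, the 11 cisplatin regions 7.28 kb and the 10 Pt-ttpy regions 7.42 kb. The 12 untreated regions carried 11 peak numbers, so the counts hardly differed. The median width was 421, 553 and 560 bp. Both drug lists had their leading region at the same place, 58121434 to 58123022 after cisplatin (fold 10.6) and 58121431 to 58123020 after Pt-ttpy (fold 8.17). The leading untreated region was at 58127560 to 58127980 with a fold of 8.72. What lies in this sequence was not annotated here.

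Nearly all untreated regions of the stretch were also called after either drug. On a cisplatin region lay 229 of 233, or 98.3% (exact binomial 95% interval 95.7 to 99.5), where 96.1% of the whole untreated list did. On a Pt-ttpy region lay 228 of 233, or 97.9% (95.1 to 99.3), where 95.1% of the whole list did. Both shares are near the background and say nothing particular to chromosome 8. In all, 225 untreated regions lay on both drug lists and 1 lay on neither, the region of 94 bp from 130995490 to 130995583.

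Seen from the treated lists, a larger share of the regions of the stretch than of the whole list lay on untreated regions, and the excess was in the clusters. Of the Pt-ttpy regions 144 of 201, or 71.6% (64.9 to 77.8), lay on an untreated region, where 39.5% of the whole Pt-ttpy list did. Of the cisplatin regions 143 of 296, or 48.3% (42.5 to 54.2), lay on one, where 27.3% of the whole list did. Without the array the shares were 67.3% and 38.5%. Among scattered regions they were 42.9% (26.3 to 60.6) for Pt-ttpy and 14.0% (8.24 to 21.8) for cisplatin, near and below the shares of the whole lists. Between the drugs, 178 of 201 Pt-ttpy regions (88.6%) shared sequence with a cisplatin one, against 69.9% in the whole list, and Pt-ttpy regions lay under 175 of 296 cisplatin ones (59.1%) against 47.8%. With at least 50% of both regions overlapping, the Pt-ttpy share on untreated regions was 47.3% and the untreated share on Pt-ttpy regions 40.8%. The intervals count regions as independent and do not cover variation between cultures.

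Away from the clusters the lists differed most. Scattered regions numbered 18 in untreated cells, 114 after cisplatin and 35 after Pt-ttpy, and they covered 2.85, 16.3 and 5.77 kb. The cisplatin list thus had 3.26 scattered regions per Pt-ttpy region (2.21 to 4.90), against 1.44 in the rest of the genome. With a -log10 q of at least 5, only 40 cisplatin and 28 Pt-ttpy scattered regions were left, so the lists differed less among stronger calls. Of the scattered cisplatin regions 35.1% had a -log10 q of at least 5, where 46.9% of the whole cisplatin list did. The same share was 80.0% for Pt-ttpy against 57.6% in its whole list, and all 18 untreated regions passed against 73.9%. Beside the 18 untreated regions, 93 peak numbers are missing outside the clusters, which with the 18 make 111. Whether the missing numbers stand for regions like those of the treated lists was not tested.

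Cisplatin regions off both other lists made up the largest part of the scattered ones. They numbered 89 of 114, or 78.1%, where 51.4% of the whole cisplatin list lay on neither other list. They had a median width of 117 bp and a median fold of 3.29, and lay in 54 windows of 1 Mb with at most 6 in any of them. The strongest was at 63138286 to 63138394 with a fold of 5.37. For Pt-ttpy, 12 of 35 lay on neither other list, or 34.3% against 29.3% in the whole list, and the strongest was at 57264396 to 57264496 with a fold of 4.56. These single-drug regions were narrow and spread over the arm.

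Regions of both drugs off the untreated list were fewer and somewhat stronger. There were 9 scattered cisplatin and 8 scattered Pt-ttpy regions of this kind, with median folds of 4.67 and 4.43. The strongest in both lists was the same site, 84927728 to 84927864 after cisplatin (fold 7.27) and 84927732 to 84927869 after Pt-ttpy (fold 7.40). Since numbers are missing from the untreated list, a site not listed there cannot be read as a site without signal.

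Some isolated sites were called in all 3 lists with similar limits. Of the 18 scattered untreated regions 14, or 77.8% (52.4 to 93.6), lay on regions of both drugs. The share over the whole untreated list, 93%, lies within that interval. The strongest was at 70602291 to 70602529 in untreated cells (fold 59.2), 70602291 to 70602528 after cisplatin (fold 33.2) and 70602293 to 70602529 after Pt-ttpy (fold 25.6). By -log10 q, 0.268%, 0.230% and 0.309% of the regions of the respective lists were as strong or stronger. The next untreated site was at 82754603 to 82754824 (fold 52.6), and the matching folds were 30.8 and 23.6. They were 239 and 222 bp wide in untreated cells, and nearly as wide after either drug.

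The other shared sites had lower folds. The site at 144751627 to 144751782 had a fold of 23.2 in untreated cells, 17.3 after cisplatin and 14.4 after Pt-ttpy. The site at 109110185 to 109110316 had folds of 15.0, 9.17 and 7.14, and that at 145180525 to 145180968, the last of the stretch, had folds of 9.62, 10.7 and 9.21. Each of these folds is above the median of its own list. The next region after the end of the stretch began at 145505107 in the untreated list with a fold of 3.61, and the last one before its start ended at 39508597 with a fold of 5.11.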

How the data were processed

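The authors deposited 1 narrowPeak list per condition. BWA 0.7.5, MACS2 2.1.0 and build hg19 are named, per the submitters' processing notes. Calling settings, control and replicate pooling were not given in the sources used here. Each deposited row holds a score, a fold enrichment ratio, a -log10 q-value and a summit offset, among others. Folds moved in whole steps of 0.301, 0.173 and 0.129 in the untreated, cisplatin and Pt-ttpy lists, so each list has its own calling scale. Of 18049 peak numbers in the untreated list, 8848 are missing.

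The stretch, its clusters and the lists compared were chosen with earlier results of these data known. Regions on chromosomes 1 to 22 and X were used, placed by midpoint into 100 kb windows. Windows were dense at 5 regions, and overlap meant at least 1 bp. Coordinates are 1-based. Named windows were the 5 densest of each list and the 5 with the largest untreated minus Pt-ttpy difference. Named regions were the 3 widest, the 3 of highest -log10 q, and the leading one per named window. Other sites, the scattered ones among them, were named after their values were seen. Chromosome lengths were entered from general knowledge. Shares carry exact (Clopper-Pearson) 95% intervals, count ratios exact conditional ones, for counting error only. The code was tested on simulated data. Software was matplotlib 3.10.9, scipy 1.17.1, pandas 2.3.3 and numpy 2.4.6 under Python 3.11.15.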

Additional observations from a re-analysis of the deposited data

How the results depend on the processing

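No paired analysis was possible because each condition is 1 list and no result comes from a test, and for the same reason no replicate could be left out. Of 196 alternative values, 124 stayed within their limits (1.5 times for a count or a length, the 95% interval otherwise), 67 moved beyond them and 5 crossed equality. The alternatives without the array, with merging at 200 bp, and those on covered length and for the array alone were chosen after seeing the data.

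Merging regions within 1 kb left 53 untreated, 158 cisplatin and 71 Pt-ttpy regions, with ratios of 1.34 for Pt-ttpy over untreated, 2.98 for cisplatin over untreated and 2.23 for cisplatin over Pt-ttpy. Median widths were then 124.5 bp for cisplatin and 153 bp for Pt-ttpy, dense windows 2, 3 and 2, and the shares in dense windows 30.2%, 22.8% and 32.4%. The overlaps became 92.5% of untreated on Pt-ttpy, 26.6% of cisplatin on untreated, 34.8% of cisplatin on Pt-ttpy, 60.6% of Pt-ttpy on untreated and 81.7% of Pt-ttpy on cisplatin. The array then held 10 untreated, 5 cisplatin and 7 Pt-ttpy regions. Merging within 200 bp gave 141 untreated and 125 Pt-ttpy regions, a cisplatin to untreated ratio of 1.56, and 69, 40 and 36 regions in the array.

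With a -log10 q of at least 5, cisplatin over untreated was 0.980 and cisplatin over Pt-ttpy 1.14. The cisplatin median width was 288 bp, 78.0% of its regions lay in dense windows, 64.0% on untreated and 78.5% on Pt-ttpy regions. With equal numbers of top regions, 176 cisplatin regions were left, at ratios of 0.755 to untreated and 1.01 to Pt-ttpy, with a median width of 344 bp and 79.5% in dense windows. Overlaps were then 77.3% of cisplatin on untreated, 84.7% of cisplatin on Pt-ttpy, 81.0% of Pt-ttpy on untreated and 95.3% of untreated on cisplatin. With missing numbers added, Pt-ttpy over untreated was 0.622 and cisplatin over untreated 0.916.

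From 52 Mb on, each list had 4 dense windows, the Pt-ttpy median width was 433 bp, and 49.5% of cisplatin regions lay in dense windows. Without the array there were 86 untreated and 110 Pt-ttpy regions, with ratios of 1.28, 2.42 and 1.89 (cisplatin over Pt-ttpy), median widths of 192.5, 137 and 161.5 bp and covered lengths of 52.1, 74.5 and 62.3 kb. Overlaps were then 38.5% of cisplatin on untreated, 45.7% of cisplatin on Pt-ttpy and 82.7% of Pt-ttpy on cisplatin. With 50% of both regions required, the shares were 42.1% of untreated on cisplatin, 40.8% of untreated on Pt-ttpy, 33.1% of cisplatin on untreated, 49.0% of cisplatin on Pt-ttpy, 47.3% of Pt-ttpy on untreated and 72.1% of Pt-ttpy on cisplatin. By summit, 94.0% of untreated regions lay on either drug. For 40 untreated regions of the stretch the summit position fell outside the region itself. The cause of each shift was not tested beyond the construction of the alternative. Covered length was computed with a -log10 q of at least 5, with equal numbers of top regions, from 52 Mb on and without the array. In each of these the untreated list covered the least. It was not computed with regions merged, with pieces of a number joined or with missing numbers added.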
